A study of Rattus norvegicus with 3 samples.

Results

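Major histocompatibility complex (MHC) class II molecules, with the genes that assemble and switch them on, were followed in kidney RNA of spontaneously hypertensive rats given a protein hydrolysate of blue mussel by mouth. The 8 genes were Cd74, RT1-Da, RT1-Db1, RT1-Ba, RT1-Bb, RT1-DMa, RT1-DMb and Ciita. They were found by the gene name in the scanner files or through the accession printed beside a probe, and they came to 10 probes of the 30367 on the array. Of the 8 genes, 7 stood above background on all 3 arrays, and RT1-Ba stood above it on none, where above background means a signal-to-noise ratio of at least 3.

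All animals were males of the SHR strain on a wistar background, aged 8 to 10 weeks and weighing 280 to 330 g. They received water (control), the hydrolysate HBMP at 10 mg/kg per day (low dose) or HBMP at 20 mg/kg per day (high dose) for 4 weeks, with 10 rats in each group. RNA from 4 rats per group was pooled and hybridised to 1 single-dye array, so each group was measured once, as a pool. No group had a replicate, so no test between groups was possible, the number of arrays limits the precision, and the values describe these 3 arrays. The arrays shared 1 slide, and the place of an array on it and its group cannot be told apart.

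Class II molecules sit on antigen-presenting cells such as dendritic cells, macrophages and B cells, where they hold peptides of proteins taken up by the cell out to helper T cells. Each molecule is an alpha and a beta chain, escorted from the endoplasmic reticulum by the invariant chain Cd74. A fragment of Cd74 stays in the peptide groove until the DM molecule exchanges it for a peptide in the endosome. In rats the D molecule (RT1-Da with RT1-Db1) is the counterpart of human DR, and the B molecule (RT1-Ba with RT1-Bb) that of human DQ. The coactivator Ciita does not bind DNA itself but docks on the factors RFX, CREB and NF-Y at conserved promoter elements, of which the X box and the Y box are the best known. In kidney, class II is known mainly from interstitial dendritic cells and macrophages, and tubule cells can acquire it in inflammation.

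The promoters of the class II chains are shown because these elements are what Ciita acts through. The 3 chains measured, RT1-Da, RT1-Db1 and RT1-Bb, had the same order on the arrays. So had Cd74, RT1-DMa and RT1-DMb, whereas Ciita had not. Cd74 and RT1-DMa gave no exact X box match. A link between promoter letters and the order on the arrays was not tested. RefSeq promoter windows of the assembly GRCr8, from 250 bases before to 50 after the annotated start, were available for 6 members (Cd74, RT1-Da, RT1-Db1, RT1-Ba, RT1-Bb and RT1-DMa). Both strands were searched for the X box, by a consensus with 3 open positions whose matches are the longer runs of capitals, and for the Y box letters ATTGG. On the other strand the Y box reads CCAAT. The motifs do not overlap each other in these windows. The stretches are of 120 bases each, from position -140 to position -21 counted from the start, in lower case with the matches in capitals.
RT1-Da, chr20:4515275-4515394, plus strand: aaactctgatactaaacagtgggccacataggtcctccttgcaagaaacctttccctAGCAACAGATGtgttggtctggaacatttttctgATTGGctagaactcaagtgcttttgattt
RT1-Db1, chr20:4560183-4560302, minus strand: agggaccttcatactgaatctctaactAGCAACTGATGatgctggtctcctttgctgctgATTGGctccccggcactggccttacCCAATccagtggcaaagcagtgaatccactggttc
RT1-Bb, chr20:4604139-4604258, minus strand: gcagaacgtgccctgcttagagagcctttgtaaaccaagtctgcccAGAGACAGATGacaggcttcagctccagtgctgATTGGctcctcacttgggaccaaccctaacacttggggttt
RT1-Ba, chr20:4576917-4577036, plus strand: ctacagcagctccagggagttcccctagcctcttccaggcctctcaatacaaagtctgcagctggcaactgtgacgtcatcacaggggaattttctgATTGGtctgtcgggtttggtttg
RT1-DMa, chr20:4712356-4712475, minus strand: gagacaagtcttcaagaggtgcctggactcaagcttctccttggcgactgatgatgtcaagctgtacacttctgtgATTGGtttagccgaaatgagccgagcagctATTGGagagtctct

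The Y box letters were present in all 6 windows, against 37.5% of 33469 promoters, and the X box letters in 3 of the 6, against 0.95%. The consensus is that of an element known from class II promoters, so its higher share among them was fixed beforehand. Only exact matches to the consensus were counted, so a window without a match can hold a near match. The RT1-DMa stretch holds ggcgactgatg, which departs from the consensus in its first letter only. In RT1-Da the X box match began 83 bases and the Y box match 49 bases before the start, a distance of 34 bases. In RT1-Db1 they began 113 and 80 bases before the start, 33 bases apart, and in RT1-Bb 94 and 61 bases, also 33 apart. An X box match followed by a Y box match on the same strand at a distance of 30 to 36 bases occurred in 6 promoters, or 0.0179%, a spacing window chosen after these matches were seen. These were RT1-Da, RT1-Db1, RT1-Bb, RT1-Db2, RT1-DOb and RT1-CE10, all on chromosome 20. In Cd74 the window held CCAAT 189 bases before the start and no X box letters. A match of letters is a description and not a site of binding, and no binding was measured.

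On the arrays, the measured class II chains, Cd74 and the DM genes were highest at the low dose and lowest at the high dose, with control between them. This order held for 6 of the 7 measured genes, and 11.7% of the 9645 named genes measured on all arrays showed it. For Cd74 a further probe without a gene symbol put the high dose above control, as given with the values of Cd74. Differences were modest: none of the 7 reached 2-fold in any comparison. The error of a single spot was taken from probes printed on 10 spots, whose spot differences between arrays had a median SD of 0.12 (log2) for either dose over control and 0.08 for high over low dose, over at least 1111 probes. All 10 class II probes were printed on 1 spot each, and this error holds nothing of the difference between animals. High dose and control differed by less than this error for RT1-Da (-0.08) and RT1-DMb (-0.04), so the order of those 2 arrays is not resolved for them. RT1-DMb lost its negative sign there in 4 of 11 other settings.

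**Figure D1:**
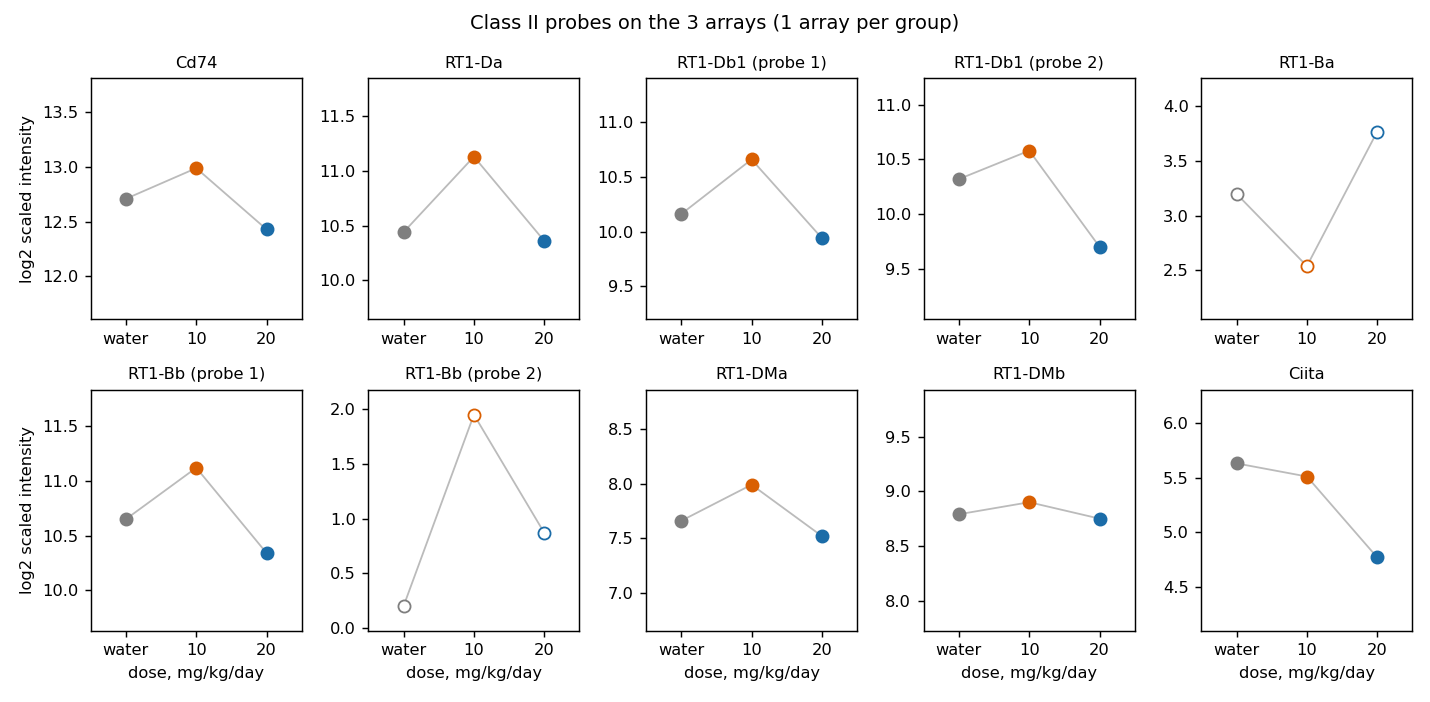
Scaled log2 intensity of every class II probe (vertical axis, one scale length of 2.2 log2 units in each panel) on the water, 10 and 20 mg/kg/day arrays (horizontal axis). Filled points stood above background and open points did not. Every probe with filled points peaks at 10 mg/kg/day except that of Ciita, which is at 5.63 with water, 5.51 at the low dose and 4.77 at the high dose.

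Of the measured genes, RT1-Da of the D molecule gave the largest difference at the low dose. RT1-Da, its alpha chain, read 1386.5 with water, 2246.9 at 10 mg/kg and 1314.3 at 20 mg/kg in scaled intensity, which is the signal net of background after each array was brought to the same 75th percentile. It thus stood out at the low dose, 1.62-fold over control (log2 difference 0.70, against an SD of 0.10 for spots of that brightness), while high dose and control differed by less than that SD (-0.08, SD 0.09). RT1-Db1, its beta chain, is read by 2 probes. The probe that represents the gene read 1147.1 with water, 1614.7 at 10 mg/kg and 983.7 at 20 mg/kg. The other read 1276.0 with water, 1531.5 at 10 mg/kg and 834.3 at 20 mg/kg. In that order the probes gave log2 differences of 0.49 and 0.26 for low dose over control and of -0.22 and -0.61 for high dose over control, so they share a direction and disagree in size. Between the doses they were closer, at -0.71 and -0.88.

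The B molecule could be read only through its beta chain. RT1-Bb read 1605.1 with water, 2227.5 at 10 mg/kg and 1293.4 at 20 mg/kg, again highest at the low dose. The low dose stood 1.39-fold over control (log2 difference 0.47, SD of spots 0.10) and the high dose at 0.81 of control (-0.31, SD 0.09). The file annotation ties this probe also to the transcript of LOC688090, a gene described there as similar to the class II B beta chain, so the signal cannot be given to RT1-Bb alone. A different RT1-Bb probe did not stand above background on any array, with net intensities of 1 with water, 4 at 10 mg/kg and 2 at 20 mg/kg. The probe of RT1-Ba, the alpha chain, likewise had net intensities of 8 with water, 6 at 10 mg/kg and 15 at 20 mg/kg, with a signal-to-noise ratio of at most 1.9 against the limit of 3. No difference is given for either probe.

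Cd74, the invariant chain, read 6707.9 with water, 8128.8 at 10 mg/kg and 5515.1 at 20 mg/kg. The low dose lay above control by 0.28 (log2, SD of spots 0.11) and the high dose below it (-0.28, SD 0.12), both differences being more than 2 SD of single spots. A probe without a gene symbol, described in the files as the rat class II gamma chain (HG2A_RAT, the protein of Cd74) and outside the members' rule, was picked after its values were seen and stood at 0.59 at the low dose and at 0.15 at the high dose over control. It shares the direction of the Cd74 probe at the low dose and not at the high dose, and by it Cd74 would leave the order low dose, control, high dose. The neighbouring spots on the array had a median difference of -0.13 at the high dose, and with such local medians taken away the Cd74 difference was -0.16. This correction was added after the data were seen.

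The DM genes, which load the peptide, had smaller differences between the doses than the other 5 measured genes, except that RT1-DMa differed more than Ciita with normexp and more than Cd74 after subtraction of the neighbouring spots. RT1-DMa read 202.5 with water, 254.6 at 10 mg/kg and 183.1 at 20 mg/kg. RT1-DMb read 443.0 with water, 477.3 at 10 mg/kg and 431.7 at 20 mg/kg. Both were highest at the low dose, RT1-DMb by a narrow margin. RT1-DMa was higher at the low dose than in control by 0.33 (log2, SD of spots 0.13), and its high-dose difference of -0.15 was little over the SD of 0.12. For RT1-DMb the low-dose difference of 0.11 about equalled the SD of 0.10. Its high-dose difference of -0.04 was smaller than the SD and reached 0.01 under quantile normalization and after subtraction of the neighbouring spots.

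Ciita, the coactivator, did not stand highest at the low dose as the other measured members did, by a margin within the spot error. It read 49.5 with water, 45.5 at 10 mg/kg and 27.3 at 20 mg/kg. Control and low dose differed by less than the SD of dim spots (-0.12, SD 0.19), and the high dose stood at 0.55 of control (log2 difference -0.86, SD 0.20). The probe was dim on every array, with signal-to-noise ratios of 5.1 with water, 5.6 at 10 mg/kg and 3.9 at 20 mg/kg, close to the limit of 3. With normexp, which adds an offset that shrinks differences of dim probes, the high-dose difference was -0.40.

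For low dose over control, the question was how far class II transcripts in the kidney differ under the smaller dose. The 7 measured genes had a median log2 difference of 0.33, from -0.12 for Ciita to 0.70 for RT1-Da, with 6 of them above 0 and 1 below. Over all 9733 named genes compared the median was -0.11, with 35.7% above 0 and 64.3% below. None of the members reached 2-fold, whereas 2.51% of the genes compared did so upwards and 0.668% downwards. RT1-Da ranked above 94.9% of the genes, RT1-Db1 above 91.9%, RT1-Bb above 91.4%, RT1-DMa above 87.5%, Cd74 above 85.6% and RT1-DMb above 75.6%. Ciita ranked above 47.6%, near the middle.

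High dose over control put the same question to the larger dose. All 7 measured genes stood below 0, with a median of -0.22 and a range of -0.86 to -0.04, while of the 9886 named genes compared 57.9% stood below 0 and 42.1% above, and their median was -0.06. RT1-DMb came to 0 or just above it under normexp, quantile normalization, the authors' deposited log2 values and subtraction of the neighbouring spots. None reached 2-fold, against 0.829% of the genes upwards and 0.162% downwards. Ciita ranked above only 0.607% of the genes, and the other 6 ranked above 19.5% (RT1-Bb) to 53% (RT1-DMb) of them, within the bulk of genes. The differences of the doses from control share the control array, so their values for the members are not independent of each other.

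High dose over low dose gave the widest separation. The 7 measured genes all stood below 0 here. Their median was -0.71, from -0.78 for RT1-Bb to -0.14 for RT1-DMb. Over the 10119 named genes compared the median was 0.02, with 46.7% below 0 and 53.3% above. RT1-Bb ranked above 2.97% of the genes, RT1-Da above 3.12%, Ciita above 3.56%, RT1-Db1 above 3.8%, Cd74 above 6.19%, RT1-DMa above 7.84% and RT1-DMb above 28.3%. Again 0 of the 7 passed 2-fold, against 0.445% of genes higher and 1.54% lower. Ciita was at -0.74 here and at -0.28 with normexp. Every one of the 7 kept its direction in all 11 other settings tried.

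**Figure D2:**
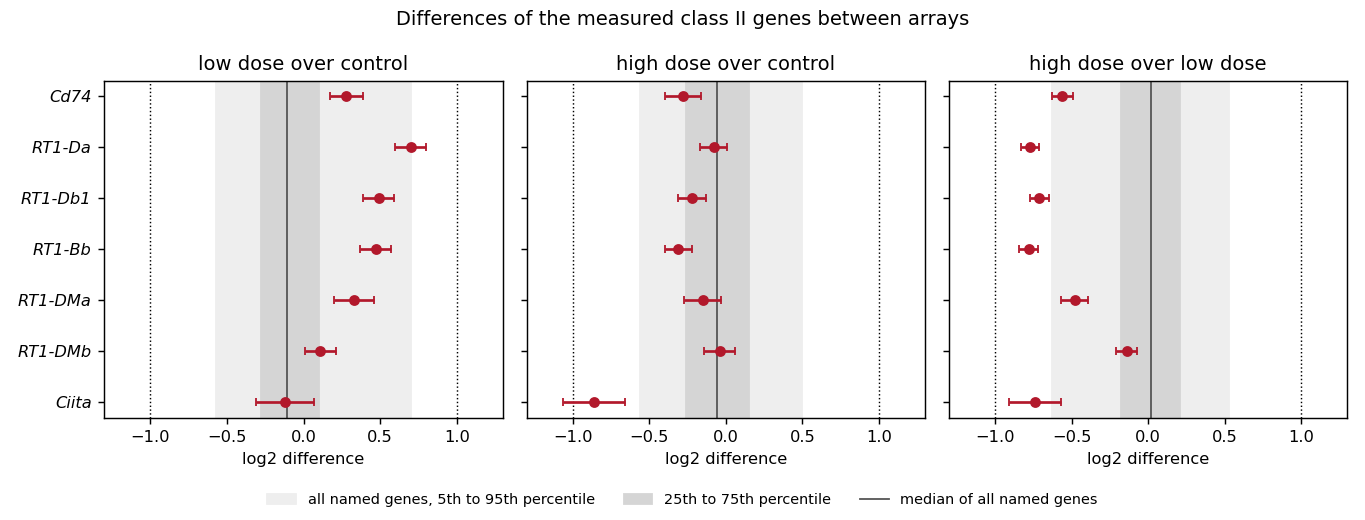
Log2 difference of each measured class II gene (horizontal axis) in the 3 comparisons, with a bar of 1 SD of single-spot differences at that brightness. Grey bands give the 5th to 95th and the 25th to 75th percentile of all named genes, the vertical line their median and the dotted lines 2-fold. For high over low dose, RT1-Bb, RT1-Da, Ciita and RT1-Db1 lie left of the outer band, whose lower edge is at -0.63.

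Of the members, 6 are neighbours on chromosome 20 in GRCr8, in the order RT1-Da, RT1-Db1, RT1-Ba, RT1-Bb, RT1-DMb and RT1-DMa. The 16 protein-coding genes from RT1-Da to RT1-Ha also hold genes of class I peptide supply, and 4 genes that are not members were measured there. Psmb8 and Psmb9, catalytic subunits of the immunoproteasome, stood at 0.83 and 0.60 at the low dose over control and at 0.33 and -0.15 at the high dose. Tap2, a chain of the peptide transporter, stood at -0.27 at the low dose and -0.61 at the high dose, and Brd2, a chromatin reader, at 0.25 and -0.04. All 4 were lower at the high than at the low dose, with a median of -0.42. RT1-DOa and RT1-DOb, which in human and mouse form an inhibitor of DM, did not stand above background on any array.

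**Figure D3:**
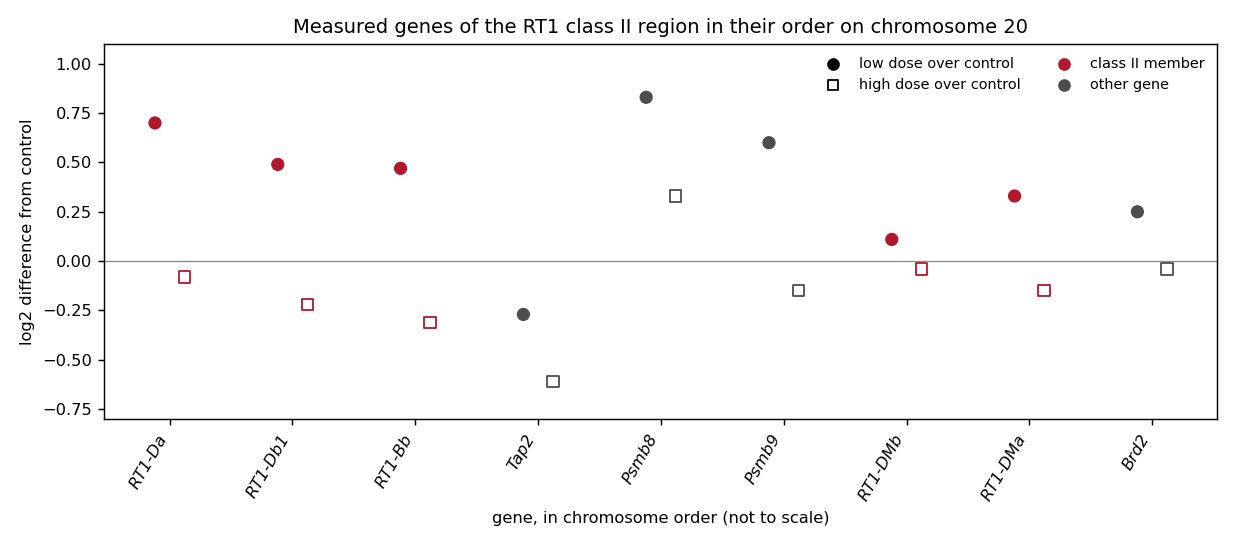
Log2 difference from control (vertical axis) at the low dose (filled circles) and the high dose (open squares) for the 9 measured genes between RT1-Da and RT1-Ha, in chromosome order and not to scale. Class II genes are red. The RT1-Da, RT1-Db1 and RT1-Bb circles lie at 0.47 to 0.70, while Tap2 lies below 0 at both doses.

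The machinery that cuts antigens and frees the groove did not share one direction. Of 24 genes of processing and loading, 20 were measured on all arrays. At the low dose 10 stood above and 10 below control, with a median of 0.00, and at the high dose 6 above and 14 below, with a median of -0.10. Ctss, the cathepsin that trims the invariant chain in antigen-presenting cells, read 619.0 with water, 1038.7 at 10 mg/kg and 615.7 at 20 mg/kg. Its log2 difference was 0.75 at the low dose and -0.01 at the high dose. Ctsd, an aspartic lysosomal protease, stood at 0.42 and -0.34. Ifi30, the thiol reductase of endosomes, stood at 0.08 and -0.31, and Lgmn, the asparagine endopeptidase, at -0.26 and -0.14. Ctse, an endosomal protease related to Ctsd, was the only measured member of that list past 2-fold against control, at 2.49 at the low dose (1.36 with normexp). Between the doses Ctse stood at -1.65 and Cd44, a partner of Cd74 in signalling by Mif, at -1.04. The Cd44 value was -0.71 with normexp and -0.30 as a mean over its probes.

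Regulators of class II transcription were mixed in direction at the high dose. Of 23 genes, 14 were measured, with a median of 0.18 at the low dose (11 above, 3 below control) and -0.03 at the high dose (7 above, 7 below), and none passed 2-fold. Among the largest differences from control were those of Carm1, a methyltransferase that acts as a coactivator (0.90 at the low and 0.84 at the high dose), Nfyc, a subunit of NF-Y (0.57 and 0.84), and Ep300, an acetyltransferase (-0.34 and -0.64). Rfxank and Rfxap, subunits of RFX, stood at 0.22 and 0.13 at the low dose and 0.24 and 0.06 at the high dose. Rfx5, the subunit that completes it, and Ifng, interferon gamma, the main inducer of Ciita, did not stand above background on any array. Ifngr1, a chain of its receptor, was at 0.54 and -0.13, and Irf1, a factor induced by it, at 0.77 and 0.09.

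The helper T cell side was mostly too dim to read. Of 16 genes of co-stimulation and of the T cell receptor complex, 5 were measured, and 9, among them Cd4, Cd80, Cd86 and Cd28, stood above background on no array. Cd40, a receptor by which T cells activate presenting cells, stood at 0.25 at the low dose and -0.39 at the high dose. Cd3g, a chain of the T cell receptor complex, stood at 1.19 at the low dose (0.55 with normexp) and 0.64 at the high dose. Cd3d, a brighter chain of the same complex, stood at 0.06 at both doses, and Cd3e stood above background on no array.

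Most measured markers of macrophages and dendritic cells stood higher at the low dose than in control. Of 33 macrophage and dendritic cell markers, 18 were measured on all arrays. Their summed scaled intensity came to 34236 at the low dose and 21706 at the high dose, against 22443 with water. Most of each sum came from 1 gene, Lyz2, at 17856.9, 12412.9 and 13430.9 in that order. Without Lyz2 the high-dose sum would lie slightly above that with water. The median was 0.79 at the low dose, with 15 above and 3 below control and 5 at least 2-fold higher, and 0.07 at the high dose, with 11 above and 7 below. Between the doses it was -0.61, with 15 of 18 lower at the high dose and 5 at least 2-fold lower. Of these 5, Clec10a (-1.59) and C1qb (-1.22) stayed past 2-fold with normexp, and C1qa (-0.94), Cd68 (-0.93) and C1qc (-0.84) did not. Cd68, a lysosomal protein of macrophages, stood at 0.94 at the low dose and -0.11 at the high dose, and Clec10a, a lectin of macrophages and dendritic cells, at 2.08 and 0.09. The others past 2-fold at the low dose were the complement genes C1qa (1.23), C1qb (1.18) and C1qc (1.26, or 0.91 with normexp) and the co-receptor Cd14 (1.18, or 0.69 with normexp). The 3 below control at the low dose were Clec4f (-0.45), a lectin of liver macrophages, the growth factor receptor Csf1r (-0.28) and the chemokine receptor Cx3cr1 (-0.17), and Csf1r stood at 0.37 at the high dose. Zbtb46, a factor of dendritic cells, and Ccr7, their homing receptor, stood above background on the high-dose and control arrays and not on the low-dose array. Zbtb46 was at least 2.2-fold higher at the high than at the low dose, and at least 1.98-fold lower at the low dose than in control. For Ccr7 these bounds were 1.34 and 1.23. Such bounds leave out the spot error, whose SD for dim spots (log2 4 to 6) was 0.17 and 0.19 in these comparisons. Other genes of the list went the other way. Flt3 stood above background on the low-dose array only, at least 1.42-fold over control and at least 1.79-fold over the high dose. Fscn1, measured on all arrays, stood at 0.87 at the low dose and 0.23 at the high dose. The dendritic cell markers Xcr1, Clec9a, Itgax and Batf3 stood above background on no array. The part of these cells in the class II values was not tested. In bulk RNA, fewer cells of a type and less RNA per cell cannot be told apart.

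B cells, which also carry class II, left little signal. Of 12 markers only Pax5 and Blnk were measured on all arrays, at -0.27 and 0.64 at the low dose, and Cd79a, Cd79b and Ms4a1 stood above background on none. Of 16 T and NK cell markers 5 were measured, with a median of 0.95 at the low dose and 0.10 at the high dose. Cd3d, Cd3g and Cd247 of these are also on the co-stimulation list, and Cd7 stood at 1.16 at the low dose (0.70 with normexp). Stromal genes of lymphoid tissue had a median of 0.51 and 0.17 over 4 measured genes. The labelled tissue was borne out by its markers, since all 12 kidney epithelial genes were measured, among them Umod and Lrp2. Their median was -0.39 at the low and -0.43 at the high dose, and only Aqp2, the water channel of the collecting duct, passed 2-fold, at 1.34 at the low dose. Fat cell markers were the most different, with a median of 2.25 at the low dose and 1.25 at the high dose over 8 measured genes and a summed scaled intensity of 8259 and 4067, against 1214 on the control array. Those past 2-fold at both doses were Ucp1, Fabp4, Adipoq, Cidea and Pparg, the last at 1.05 at the high dose (0.61 with normexp). These 5 were picked for passing 2-fold at both doses, and all stood highest at the low dose, as most class II genes did. Cfd, Retn and Lipe stood above background on both dose arrays and not on the control array. Cfd was at least 25.56-fold over control at the low dose and 14.95-fold at the high dose. For Retn these bounds were 16.83 and 18.93, and for Lipe 1.07 and 1.04. Between the doses Cfd stood at -0.77, Lipe at -0.04 and Retn, higher at the high dose, at 0.17. All 8 measured fat cell markers stood above control at the high dose, unlike the measured class II members. Between the doses 3 of the 8 stood higher at the high dose, Lpl at 0.58, Cidec at 0.28 and Slc2a4 at 0.01. For the picked 5 the differences between the doses were -1.99 for Ucp1, -1.35 for Cidea, -0.84 for Fabp4, -0.63 for Pparg and -0.21 for Adipoq. The part of this fat signal in the class II values was not tested.

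**Figure D4:**
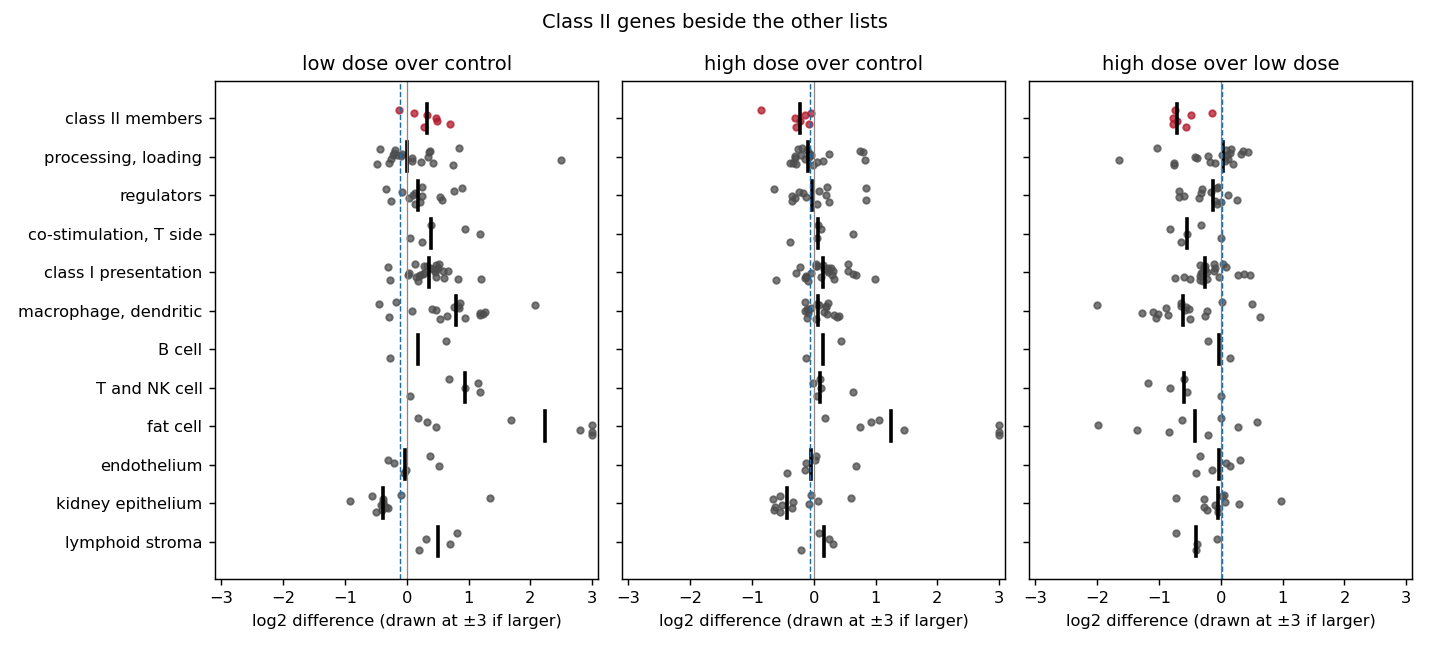
Log2 differences of single genes (points) and their median (black bar) for the class II genes and for each other list, in the 3 comparisons. The dashed line is the median of all named genes, and points past 3 are drawn at 3. The medians of class II genes and of macrophage and dendritic markers lie right of 0 for low dose over control (0.33 and 0.79) and left of 0 for high over low dose (-0.71 and -0.61). So do those of T and NK cell (0.95, -0.59), co-stimulation (0.39, -0.54), lymphoid stroma (0.51, -0.40) and fat cell lists (2.25, -0.42). The same holds for class I (0.36, -0.26), regulators (0.18, -0.13) and B cell (0.18, -0.03). It does not hold for processing (0.00, 0.04), endothelium (-0.02, -0.03) and kidney epithelium (-0.39, -0.05).

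By likeness over the 3 arrays, the 5 genes nearest to the members' median pattern (0.33 at the low and -0.22 at the high dose over control) were Card9, Zeb2, Tmem88, Irak3 and Htra1. Likeness was the Euclidean distance between both log2 differences and that median, over 9638 other named genes. The distances were 0.009 to 0.022, and 488 genes lay within 0.25. With 3 arrays such a pattern is shared by many genes.

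**Figure D5:**
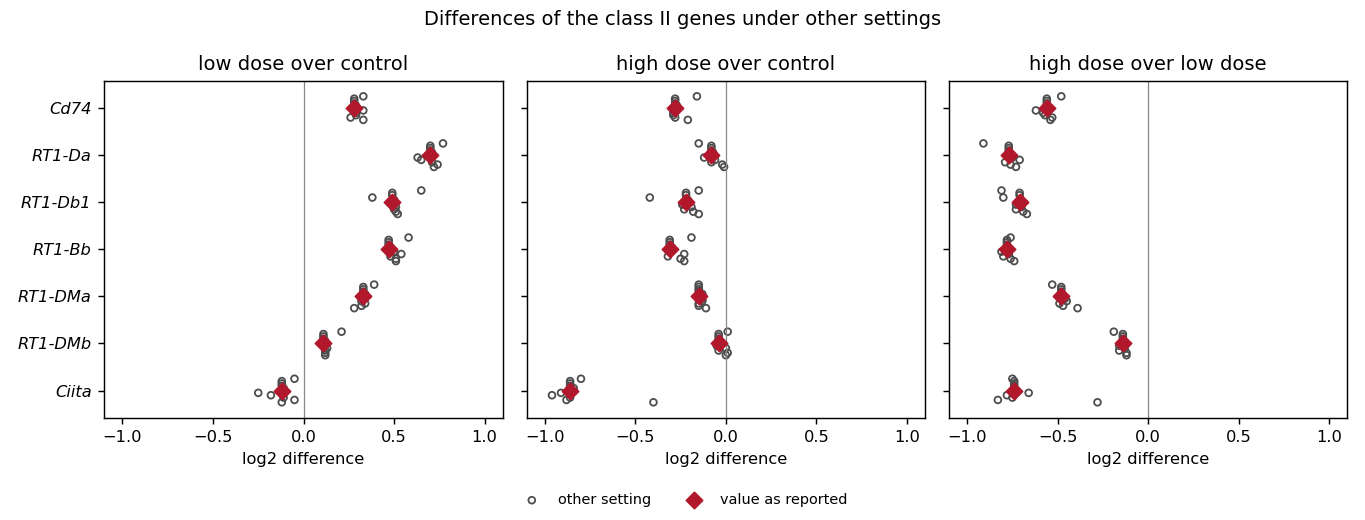
Log2 difference of each measured class II gene (horizontal axis) as reported (diamonds) and under the 11 other settings (open circles). Between the doses all values lie left of 0, and the widest spread is that of Ciita at the high dose over control, from -0.96 to -0.40.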

How the data were processed

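The deposited scanner files give the intensity of each spot at 532 nm, net of a background of 39 or 40, as read by GenePix Pro 6.1.0.4, per the file headers. Per the file headers, the signal-to-noise ratio and flag of a spot are deposited as a score, and its saturated pixels as a percent. A table of log2 values was deposited by the authors too, scaled between arrays by a method not given in the sources used here, with a median of 4.77 on each array. Agilent Feature Extraction is the tool that the submitters' processing notes give, so the planned signal and flag columns were replaced by those of GenePix. In its header the high-dose scan carries the name of a mouse design, but every spot carries the rat annotation.

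Control spots, bright spots that the software did not find (3 low-dose, 4 high-dose and 4 control) and spots whose pixel mean and median differed over 1.5-fold (156, 90 and 190) were left out. Net intensities were averaged per probe and scaled to an equal 75th percentile over 30053 probes (factors 0.968 low-dose, 0.911 high-dose and 1.15 control). Values under 1 were set to 1, and log2 was taken. A probe stood above background where a signal-to-noise ratio of at least 3 was met by 50% or more of its spots (52.4%, 55.0% and 50.9% of probes).

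Probes were named through accessions in RefSeq's gene table of GRCr8 (18355 probes), current symbols (2758), synonyms (422) or the files (1787), and 7045 had no symbol. For a gene with several probes, the one detected on the most arrays was used and, among equals, the brightest. Placeholder symbols were left out of the gene counts. All 8 members were named, with genes of the other lists past 2-fold and up to 4 more with the largest differences, of which some are left out here. Rfx5, Ifng, Lgmn, Ifi30, Rfxank, Rfxap, B2m and RT1-A1, and cell type markers that stood above background on no array, were named for their role. Cd3d, Cd3e, Flt3, Fscn1, Lpl, Cidec, Slc2a4, Lipe, RT1-CE3 and RT1-T24-4 were named, after their values were seen, to show the spread within their lists. Lyz2 was likewise named for its part in a sum. Some genes of the lists are not reported here. Members and lists were chosen with earlier results of these data known.

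Normexp used limma 3.58.1 in R 4.3.3 with an offset of 50, and other steps pandas 2.3.3 in Python 3.11.15. The steps were tested on simulated data. Alternatives numbered 10, with 1 added after the data were seen.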

Additional observations from a re-analysis of the deposited data

How the results depend on the processing

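No paired analysis was possible because each group has 1 array, and no array could be left out for the same reason. Under all 11 alternatives the members' median kept its direction in each comparison, from 0.30 to 0.39 at the low dose over control, -0.28 to -0.15 at the high dose over control and -0.75 to -0.54 at the high over the low dose, the last under normexp. Of the members' medians and counts and the counts of all genes under these alternatives, 143 values stayed within the spot error or within 1.5 times and 22 moved.

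Normexp, which compresses dim probes by its offset, left 135 genes at least 2-fold higher and 22 lower at the low dose over control (244 and 65 as reported), 36 and 4 at the high dose over control (82 and 16), and 16 and 71 at the high over the low dose (45 and 156). With no background filter, values near the floor entered and these counts were 949 and 1693, 1036 and 953, and 1570 and 697. One member, RT1-Ba, then passed 2-fold between the doses, with 1 member above 0 there and 1 at the high dose over control. For high dose over control, the genes past 2-fold downwards numbered 28 with the authors' deposited log2 values, 29 with the median over pixels and 32 with non-uniform spots kept. The number of members above 0 at the high dose over control was 0 as reported and 1 under normexp, quantile normalization and subtraction of neighbouring spots. In normexp that was RT1-DMb at 0.00.

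The limits are those of 1 pool per group, 1 spot per member probe and dim signal for Ciita and RT1-Ba. The spot error covers technical spread within an array only.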

Other observations

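Other class II probes on the array had their own values, and they were picked after these were seen. The probe described as HG2A_RAT read 2333.4 with water, 3503.4 at 10 mg/kg and 2586.8 at 20 mg/kg. LOC688090, the class II-like gene that shares the RT1-Bb probe, stood at 0.59 and -0.27 on a probe of its own, close to RT1-Bb. RT1-Ha, a further class II locus, did not stand above background on any array.

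Genes of MHC class I presentation were measured for 26 of 31 list members. Their median was 0.36 at the low dose over control, with 24 above and 2 below, and 0.15 at the high dose over control, with 18 above and 8 below. Between the doses it was -0.26, with 21 of 26 lower at the high dose. B2m, the light chain of class I, stood at 0.19 and -0.10 at the low and the high dose over control, and the heavy chain RT1-A1 at 0.28 and -0.04. Both are thus among the 8 below control at the high dose. Of the 18 above it, RT1-CE3 stood at 0.67 and 0.56 and RT1-T24-4 at 0.53 and 0.56. Tapbp, which tethers class I to the peptide transporter, stood at 1.21 (0.84 with normexp) and 0.99. Siglec1, a lectin of macrophages, stood above background on the low-dose array only, at least 3.46-fold over control, and Cd163, a scavenger receptor, likewise at least 2.10-fold. These bounds set the dim array at the higher of its own value and its lowest value above background. That is a convention and not a strict limit. With water, Cfd at 5.29 (log2) was not above background, while Zbtb46 at 4.52 was.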
